A study of Rattus norvegicus with 250 samples.

Results

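Astrocyte markers and glutamate uptake genes of the rat hippocampus, 5 in all, were followed across rats. They are *Gfap*, *Aqp4*, *Slc1a3* and the genes with the Ensembl identifiers ENSRNOG00000001295 and ENSRNOG00000005479. The rule that chose them named 5 identifiers, and all 5 were found among the 32883 genes of the count table and among the 19448 genes tested. The rule lists ENSRNOG00000001295 as *S100b* and ENSRNOG00000005479 as *Slc1a2*. No table used here holds either pairing, so both are called by their identifiers, whereas *Gfap* (ENSRNOG00000002919), *Aqp4* (ENSRNOG00000016043) and *Slc1a3* (ENSRNOG00000016163) were paired with theirs.

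The rats were F2 offspring of an intercross between bred High Responders (bHR) and bred Low Responders (bLR), lines selected for high or low exploratory locomotion. Punches of dorsal and ventral hippocampus, from the left side (123 rats) or the right (122 rats), were pooled into 1 polyA RNA library per rat, and 245 of 250 libraries carried no label of failed quality control. The 122 males were 113 to 123 days old at death and the 123 females 124 to 132 days, and no date of death held both sexes. The rats came from 12 intercross families of 13 to 27 animals, bred from F1 parents matched for high or low locomotion. Of them, 208 had been trained in Pavlovian Conditioned Approach (PavCA) and 37 had not, and the tissue was cut by dissector One (80 rats) or the other dissector (165 rats). Libraries fell into 3 sequencing batches of 95, 94 and 56. Each rat also had a LocoScore (beam breaks in an unfamiliar enclosure), elevated plus maze (EPM) measures and, for 205 rats, a PavCA Index, on which a preference for the lever cue counts upward and one for the food magazine downward. Libraries held 17.9 to 31.5 M counts.

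Astrocytes are the glial cells that surround synapses and blood vessels. *Gfap* encodes glial fibrillary acidic protein, an intermediate filament protein that is the classical astrocyte marker and rises in reactive astrocytes. *S100b*, the name listed for ENSRNOG00000001295, encodes a small calcium-binding protein that astrocytes also secrete. *Aqp4* encodes the water channel aquaporin 4, which is concentrated on astrocyte endfeet around vessels. *Slc1a3* encodes the glutamate transporter GLAST, and *Slc1a2*, the name listed for ENSRNOG00000005479, encodes GLT-1, the main transporter that clears glutamate released at hippocampal synapses.

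One stretch of sequence is shown because it holds the only match to a motif searched in these promoters. STAT factors are known to drive *Gfap* in astrocytes, so TTC and GAA separated by 3 or by 4 bases (STAT motifs), and TTGGC and GCCAA separated by 5 bases (NFI palindrome), were searched on both strands of RefSeq promoters of 300 bases. *Gfap* has 1 start in that table, *Aqp4* 2 and *Slc1a3* 3. The match, TTC and GAA with 4 bases between, is in capitals below, on the minus strand of rat chromosome 10 (GRCr8, chr10:88361838-88361867), beginning at position -196 from the gene start.

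Gfap: caggctggtgTTCCCAGGAAacccttgact

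The STAT motif with 4 bases between is held by 7.28% of 33469 promoters, that with 3 by 8.87% and the NFI palindrome by 0.0418%. No other match was found for the 3 genes, which says only that these letters are not in those windows.

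All 5 genes were well covered in every library. Expression is given as CPM, the count of a gene after every library is scaled to the same total, or as log2 CPM. *Gfap* had at least 9022 counts per library, and its level was 506 CPM in the lowest rat, 847 in the median rat and 1329 in the highest. *Aqp4* ranged from 230 to 673 CPM with a median of 419, and *Slc1a3* from 556 to 1943 CPM with a median of 959. ENSRNOG00000001295 ranged from 1054 to 4596 CPM, with a median of 1859. ENSRNOG00000005479 was the gene with the fewest counts, at least 788 per library, and ranged from 38.9 to 348 CPM with a median of 120. How much of its transcripts the annotation counts was not checked here, so its level, its spread and its relation to the UTR percentage describe the counted reads only. The highest rat was thus 2.63 times the lowest for *Gfap* and 8.94 times the lowest for ENSRNOG00000005479. Gene lengths were not available, so levels are not compared between genes.

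Spread among rats differed between the genes. The SD of log2 CPM was 0.29 for *Gfap*, 0.33 for *Slc1a3*, 0.35 for *Aqp4*, 0.52 for ENSRNOG00000001295 and 0.72 for ENSRNOG00000005479, and its median over the 1694 genes at or above the lowest mean of the 5 was 0.36. Sex, the percentages of intergenic and ribosomal reads, dissector, PavCA experience and batch (the covariates) were then removed. The remaining SD was 0.15 for ENSRNOG00000001295, 0.16 for *Slc1a3*, 0.17 for *Aqp4*, 0.18 for *Gfap* and 0.48 for ENSRNOG00000005479, with a median of 0.13 over the 1694 genes. Only 9 of these 1694 genes had a larger remaining SD than ENSRNOG00000005479.

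The first relation asked of the data was that with RNA composition. The intergenic percentage, the share of a library's reads outside genes, ran from 9.91% to 17.3%. *Gfap*, *Aqp4* and ENSRNOG00000005479 were higher in libraries with more intergenic reads, and ENSRNOG00000001295 and *Slc1a3* were lower. In bulk tissue, fewer cells of a type and less RNA per cell cannot be told apart, here or in any comparison that follows. In the 62 libraries with the lowest intergenic percentages (9.91% to 11.9%), ENSRNOG00000005479 was at 38.9 CPM in the lowest, 73.6 in the median and 151 in the highest library. In the 62 with the highest percentages (14.7% to 17.3%) the same values were 89.0, 185 and 348 CPM. The ratio of the medians was 2.51, and the ranges overlapped.

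The other genes differed between the same sets of 62 libraries as follows. *Aqp4* had medians of 307 CPM (230 to 451) and 503 CPM (379 to 660), a ratio of 1.64, and *Gfap* had medians of 694 CPM (506 to 928) and 970 CPM (684 to 1308), a ratio of 1.40. *Slc1a3* went the other way, from a median of 1277 CPM (959 to 1943) to 760 CPM (556 to 1070), a ratio of 0.595. The sets did not overlap for ENSRNOG00000001295, with a median of 2930 CPM (2031 to 4596) against 1290 CPM (1054 to 1778), a ratio of 0.440. Dissector One had cut 2 of the 62 libraries with the lowest percentages and 35 of the 62 with the highest.

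**Figure D1:**
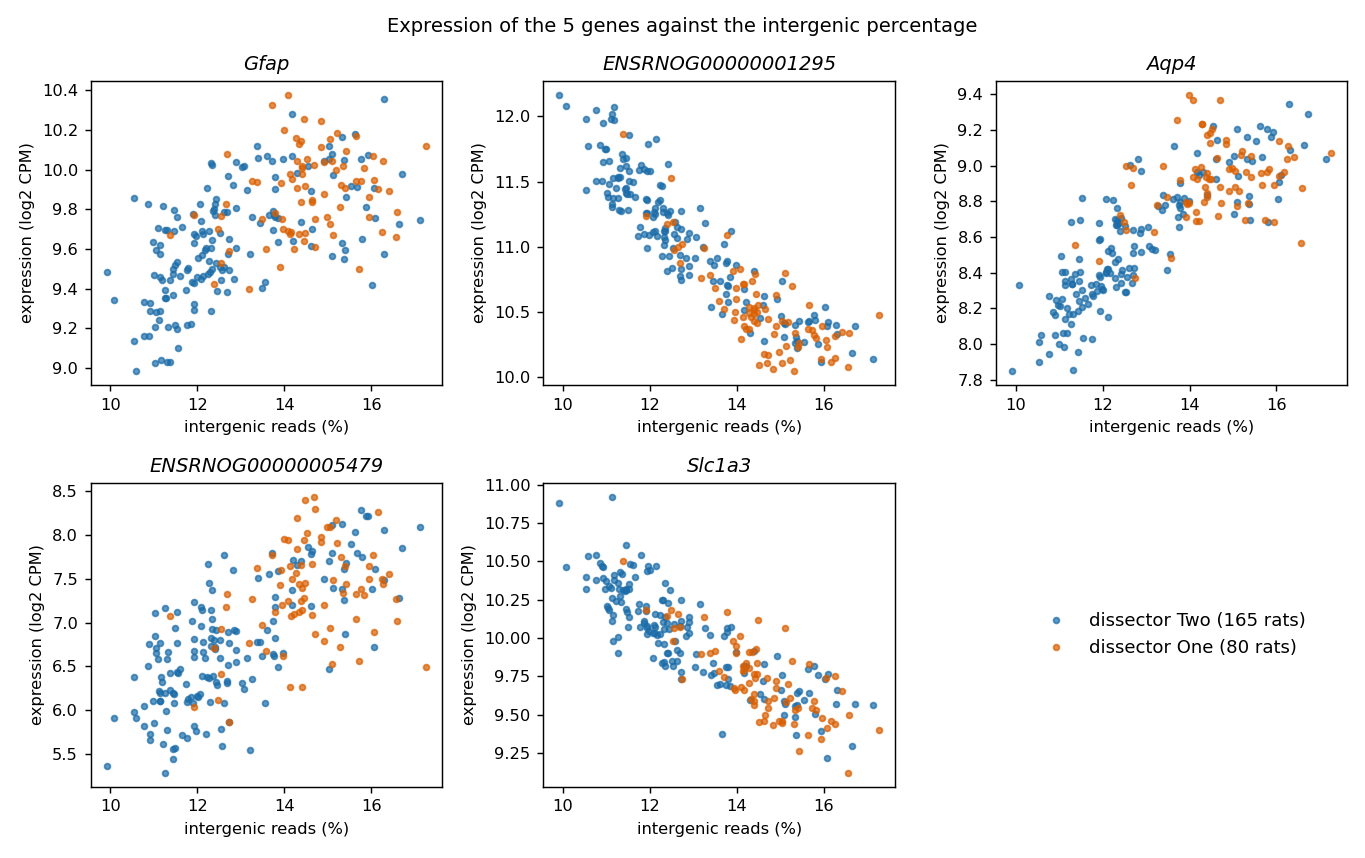
Expression (log2 CPM, y axis) of each of the 5 genes against the intergenic percentage (x axis) in 245 rats, 1 point per rat, coloured by dissector. *Gfap*, *Aqp4* and ENSRNOG00000005479 rise along the axis and ENSRNOG00000001295 and *Slc1a3* fall, and the points of dissector One, with a mean of 14.5%, sit mostly to the right of those of the other dissector, with a mean of 12.8%.

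In the model with all covariates (limma-voom, Benjamini-Hochberg adjustment over 19448 genes), all 5 genes passed for the intergenic percentage, as did 77.3% of all genes tested. Per percentage point, log2 expression changed by 0.19 for ENSRNOG00000005479 (SE 0.032, adjusted p = 2.56e-08), 0.11 for *Aqp4* (SE 0.011, adjusted p = 7.05e-21) and 0.053 for *Gfap* (SE 0.012, adjusted p = 2.23e-05). It changed by -0.12 for *Slc1a3* (SE 0.010, adjusted p = 8.82e-25) and by -0.17 for ENSRNOG00000001295 (SE 0.0099, adjusted p = 3.03e-44). Against a background of 77.3%, 5 calls are not a result about these genes. Of all genes tested, 7568 passed as rising and 7471 as falling. That the 5 went both ways is therefore no result about them either. The ribosomal percentage, 0.48% to 2.88% of reads, gave the opposite sign for each gene, with 5 of 5 passing beside 68.8% of all genes. Per percentage point of ribosomal reads the change was 0.59 for ENSRNOG00000001295, 0.25 for *Slc1a3*, -0.17 for *Gfap*, -0.27 for *Aqp4* and -0.56 for ENSRNOG00000005479, with adjusted p from 7.23e-34 to 0.00134. Both percentages were themselves related (r = -0.777).

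Some of these calls were lost in subsets of libraries, where fewer of all genes passed as well. The intergenic slope of *Gfap* did not pass in males alone (0.030, adjusted p = 0.112) or in batch 1 alone (0.028, adjusted p = 0.194). Of all genes, 13897 of 19436 and 13129 of 19346 passed there. The ribosomal slope of *Gfap* did not pass in females alone (-0.11, adjusted p = 0.136), in batch 2 alone (-0.11, adjusted p = 0.342) or in batch 3 alone (-0.021, adjusted p = 0.922). That of ENSRNOG00000005479 did not pass in males alone (-0.33, adjusted p = 0.206) or with the rats of dissector One left out (-0.25, adjusted p = 0.147). Of all genes, ribosomal slopes passed for 11814 of 19496 in females alone and 11599 of 19439 in batch 2 alone. They passed for 9858 of 19436 in males alone and 11550 of 19486 without dissector One. Among the rats of dissector One alone, the intergenic slope was -0.0098 for *Gfap* (adjusted p = 0.793), 0.049 for *Aqp4* (adjusted p = 0.105) and 0.030 for ENSRNOG00000005479 (adjusted p = 0.746), while those of ENSRNOG00000001295 (-0.14) and *Slc1a3* (-0.11) still passed. Intergenic slopes passed there for 10386 of 19387 genes. In batch 3 alone, ribosomal slopes passed for ENSRNOG00000001295 (0.44) and not for the other 4 genes, and that of ENSRNOG00000005479 was 0.10 (adjusted p = 0.832). Only 5730 of 19723 genes passed for the ribosomal percentage in that batch.

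Simple correlations gave the same directions. The intergenic percentage correlated with log2 CPM at r = 0.620 for *Gfap* (rho = 0.627), 0.810 for *Aqp4* (rho = 0.827), 0.699 for ENSRNOG00000005479 (rho = 0.709), -0.857 for *Slc1a3* (rho = -0.872) and -0.911 for ENSRNOG00000001295 (rho = -0.927). In all, 35 relations between the 5 genes and 7 RNA measures were tested. The measures were the intergenic, ribosomal, intronic and UTR percentages, RIN, RNA concentration and the median coefficient of variation of coverage. Of the 35, 34 passed an adjusted p of 0.05 by r (permutation test). Other genes were not put through this test, so no background share stands beside that count. Each of the 5 given above had an adjusted p of 1.3e-05 (two-sided permutation test, 100000 resamples, where 1e-05 is the smallest raw p). Without the 2 rats farthest from the median intergenic percentage, r was 0.622, 0.811, 0.710, -0.857 and -0.915 in the same order.

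Within groups of libraries the sizes moved. For *Gfap*, r with the intergenic percentage was 0.496, 0.607 and 0.678 in batches 1, 2 and 3, and 0.271 and 0.600 in the rats of dissector One and the other dissector. For *Aqp4* it was 0.749, 0.874 and 0.767 in the batches and 0.305 and 0.847 by dissector. For ENSRNOG00000005479 it was 0.677, 0.744 and 0.550 in the batches and 0.294 and 0.731 by dissector. ENSRNOG00000001295 stayed between -0.778 and -0.915 and *Slc1a3* between -0.748 and -0.876 over the same 5 groups, so the values nearest 0, those with dissector One, were those of the 3 genes that rose.

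Other RNA measures split the genes in the same way, with differences in size. Intergenic reads alone accounted for 83.1% of the variance of log2 CPM of ENSRNOG00000001295, 73.5% for *Slc1a3*, 65.6% for *Aqp4*, 48.9% for ENSRNOG00000005479 and 38.4% for *Gfap*, with a median of 41.6% over all genes tested. RNA concentration correlated with *Gfap* at r = 0.575 and with ENSRNOG00000001295 at r = -0.706. The UTR percentage was most strongly related to ENSRNOG00000005479 (r = -0.594), the other 4 lying between -0.345 and 0.226. RIN, the RNA integrity number, had r between -0.212 and 0.247 and rho between -0.367 and 0.355. Its relation with *Gfap* did not pass by r (0.096, adjusted p = 0.133) and passed by rho (0.242, adjusted p = 1.85e-04, permutation test), so that by rho all 35 relations passed. Its signs in batch 3 were opposite to those in batches 1 and 2 for *Gfap* (-0.235), *Aqp4* (-0.179), ENSRNOG00000001295 (0.401) and *Slc1a3* (0.163). The part of RNA composition in the group differences below was not tested beyond the fits with and without these percentages.

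The 5 genes formed a positive trio and a positive pair, with negative correlations between them. On log2 CPM over 245 rats, r was 0.755 for *Gfap* with *Aqp4*, 0.833 for *Aqp4* with ENSRNOG00000005479 and 0.560 for *Gfap* with ENSRNOG00000005479. The pair ENSRNOG00000001295 and *Slc1a3* had r = 0.901 (rho = 0.913). The 6 relations across trio and pair lay between -0.566 and -0.816, and all 10 had an adjusted p of 1e-05 (two-sided permutation test). Every one of the 10 kept its sign in each sex and each batch. The trio rose and the pair fell with the intergenic percentage, for which 77.3% of all genes passed. Other gene pairs were not tested, so the count of 10 is no result about these 5 genes.

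Removing the covariates left the links within trio and pair and took most of those across. *Gfap* with *Aqp4* then had r = 0.594 (rho = 0.586), *Aqp4* with ENSRNOG00000005479 had r = 0.609 (rho = 0.601) and ENSRNOG00000001295 with *Slc1a3* had r = 0.503 (rho = 0.510), each with an adjusted p of 3.3e-05 (permutation test). *Gfap* with ENSRNOG00000005479 was weaker at r = 0.235 (adjusted p = 3.8e-04). Of the 6 relations across, ENSRNOG00000001295 with ENSRNOG00000005479 stayed negative (r = -0.197, adjusted p = 0.00422) and *Gfap* with ENSRNOG00000001295 became positive (r = 0.138, adjusted p = 0.0490). The other 4 were between -0.092 and 0.017 with adjusted p from 0.216 to 0.797. Family, which was related to these genes (below), was not among the removed covariates. The permutations moved rats freely between families, so these p-values take no account of kinship.

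**Figure D2:**
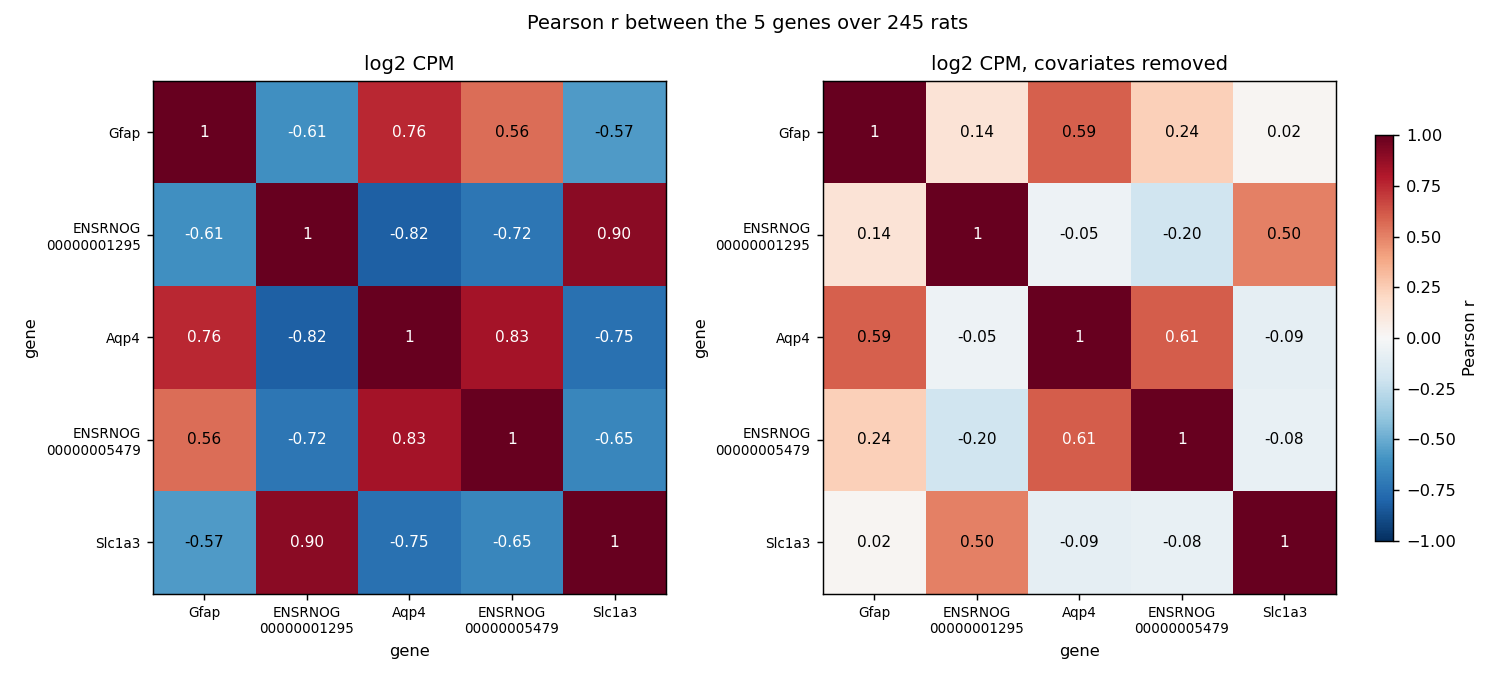
Pearson r between each pair of the 5 genes over 245 rats on log2 CPM (left) and with the covariates removed (right), with genes on both axes and r by colour. On the left, the trio of *Gfap*, *Aqp4* and ENSRNOG00000005479 and the pair of ENSRNOG00000001295 and *Slc1a3* are red within and blue across, and on the right most of the blue is gone.

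Batches and sexes differed in some of these remaining links. With covariates removed, *Slc1a3* had r = -0.325 with *Gfap*, -0.530 with *Aqp4* and -0.377 with ENSRNOG00000005479 in batch 3, while the same relations were between -0.052 and 0.146 in batches 1 and 2. ENSRNOG00000001295 with *Aqp4* was -0.219 in males and 0.156 in females. *Gfap* with ENSRNOG00000005479 was 0.368 in males and 0.098 in females, and these differences between groups were not tested.

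Sex was examined next, with all covariates and LocoScore in the model. *Gfap* and *Aqp4* were lower in females, and the other 3 genes did not pass. *Gfap* ran from 521 to 1153 CPM in females with a median of 797, and from 506 to 1329 CPM in males with a median of 894. *Aqp4* ran from 230 to 626 CPM in females (median 411) and from 239 to 673 CPM in males (median 442). The ranges of the sexes overlapped almost fully for both genes, and the difference lay in the middle of the distributions.

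**Figure D3:**
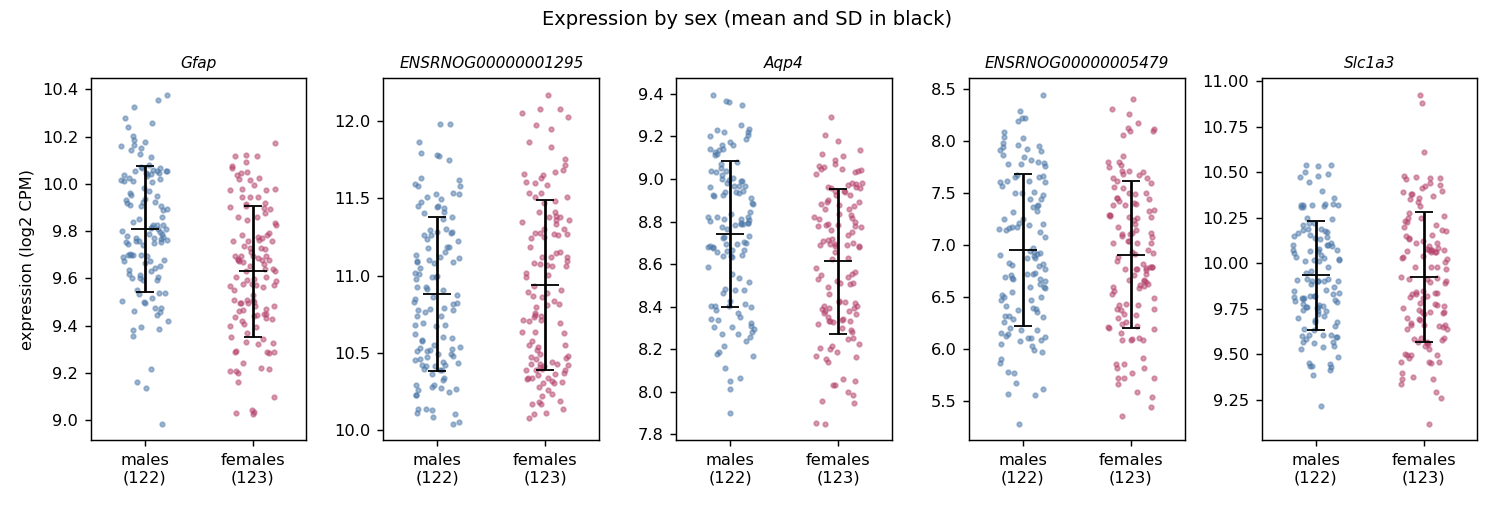
Expression (log2 CPM, y axis) of the 5 genes in 122 males and 123 females (x axis), 1 point per rat, with mean and SD in black. *Gfap* averages 9.81 in males and 9.63 in females and *Aqp4* 8.74 and 8.61, while the other 3 genes have closer means.

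The difference, female minus male, was -0.15 for *Gfap* on the log2 scale (SE 0.024, a change of -9.86%, adjusted p = 2.06e-06) and -0.12 for *Aqp4* (SE 0.022, a change of -7.68%, adjusted p = 1.06e-04). It was 0.024 for ENSRNOG00000001295 (adjusted p = 0.572), -0.018 for *Slc1a3* (adjusted p = 0.720) and -0.021 for ENSRNOG00000005479 (adjusted p = 0.912). So 2 of 5 passed, both lower in females, beside 9.08% of all genes that passed and 5.04% that were lower in females. The 95% intervals of the genes that did not pass were -0.016 to 0.063, -0.059 to 0.024 and -0.15 to 0.10 in the order just given. *Gfap* ranked above 99.8% of the genes tested by its p-value and *Aqp4* above 99.6%. The edgeR quasi-likelihood test and the DESeq2 Wald test called the same count of 2.

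Both genes were lower in females in 12 of 12 families once the covariates other than sex were removed. For *Gfap* the difference within families ran from -0.27 in family 8 to -0.021 in family 6, with a median of -0.15. For *Aqp4* it ran from -0.39 in family 12 to -0.033 in family 2, with a median of -0.11. ENSRNOG00000001295 was lower in females in 5 families and *Slc1a3* and ENSRNOG00000005479 in 6 each, so those 3 genes showed no common direction.

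Sex cannot be told apart from age and date of death, which did not overlap between the sexes. Nor can it be told apart from housing and testing. The study kept the sexes in separate rooms on different light cycles and tested males before females. Within batches 1, 2 and 3 the difference was -0.21, -0.11 and -0.11 for *Gfap* and -0.12, -0.11 and -0.12 for *Aqp4*. The *Gfap* call was lost in batch 3 alone (-0.11, adjusted p = 0.793) and with dissector One alone (-0.12, adjusted p = 0.261), and that of *Aqp4* in the same subsets (-0.12, adjusted p = 0.651 and -0.13, adjusted p = 0.168), with sex the only covariate (-0.12, adjusted p = 0.232) and without both RNA percentages (-0.092, adjusted p = 0.258). Of all genes, 36 of 19723 passed for sex in batch 3 alone and 53 of 19387 with dissector One alone. With sex the only covariate 355 of 19448 passed, and without both percentages 423. *Slc1a3* passed as lower in females in batch 1 alone (-0.11, adjusted p = 0.0448) and without the intergenic percentage (-0.069, adjusted p = 0.0737). Of 24 listed neuron genes, 4 had a paired identifier. *Rbfox3* (-0.10) and *Slc17a7* (-0.084) were lower in females and *Vip* (0.11) higher, while *Stmn2* (-0.0062) did not pass. So 3 of 4 passed, in both directions, beside 9.08% of all genes. Genes became paired partly through the study's own sex results, so this count is no result about neurons. The summed level of the 4 ran from 1768 to 3295 CPM in females (median 2395). In males it ran from 1794 to 3306 CPM (median 2480), and each marker averaged at least 806 counts. The part of the neuron genes in the result was not tested. Of the paired markers of oligodendrocytes (2 of 15 listed), microglia (2 of 12), vessels (1 of 10) and choroid plexus and ependyma (2 of 12), 0 passed for sex (limma-voom).

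Of a list of 31 further astrocyte genes, 10 had a paired identifier and all were tested. For sex 5 passed, beside 9.08% of all genes, but the 10 may not be a neutral sample. Pairings came partly from the study's own sex results, so such counts are no result about a cell type. *Itih3*, which encodes a heavy chain of an inhibitor that binds hyaluronan, was higher in females (0.27, adjusted p = 1.36e-11), as was the serine protease gene *Htra1* (0.067, adjusted p = 0.0582). *Ttyh1*, a chloride channel family gene, was lower (-0.045, adjusted p = 0.0681), and the lipid carrier gene *Apoe* was at -0.023 (adjusted p = 0.583). In all, 3 were higher and 2 lower in females, with a median of -0.017 beside -0.0029 for all genes. Because of the pairing, these values cannot show whether the list shares the direction of *Gfap* and *Aqp4*. Of 18 genes of glutamate transport and recycling, 4 had a paired identifier. The vesicular transporter genes *Slc17a7* (-0.084, adjusted p = 0.00644) and *Slc17a6* (0.28, adjusted p = 0.0121) passed in opposite directions. The neuronal glutamate transporter gene *Slc1a1* was at -0.037 (adjusted p = 0.115) and the transaminase gene *Got1* at 0.0063 (adjusted p = 0.877).

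The same lists were read against the intergenic percentage. Of the 10 astrocyte genes 3 rose and 4 fell with it, among them *Apoe* (-0.13 per point) and *Ttyh1* (0.031), and *Htra1* (0.0095) did not pass. The median was 0.013 beside -6.4e-04 for all genes. All 4 glutamate genes passed, with *Slc17a7* (0.18), *Slc1a1* (0.098) and *Slc17a6* (0.072) rising and *Got1* (-0.045) falling. For the ribosomal percentage, 3 of 10 astrocyte genes rose and 4 fell, and 3 of 4 glutamate genes fell. As with the 5 genes, markers of astrocytes went both ways. Of the other paired markers, 4 of 4 of neurons, 2 of 2 of oligodendrocytes, 1 of 2 of microglia, 1 of 1 of vessels and 2 of 2 of choroid plexus and ependyma passed for the intergenic percentage, beside the 77.3% of all genes. Counts this small, against that share, are no result about a cell type.

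Whether the dissector was related to these genes depended on the RNA percentages. Under dissector One, *Gfap* was at 675 CPM in the lowest rat, 957 in the median and 1329 in the highest, against 506, 795 and 1308 CPM under the other dissector. *Aqp4* was at 331, 486 and 673 CPM against 230, 367 and 651 CPM, and ENSRNOG00000005479 at 58.1, 161 and 348 CPM against 38.9, 102 and 312 CPM. These 3 genes had higher medians under dissector One, with overlapping ranges. ENSRNOG00000001295 was at 1054, 1408 and 3727 CPM against 1105, 2224 and 4596 CPM, and *Slc1a3* at 556, 840 and 1451 CPM against 595, 1068 and 1943 CPM, both with lower medians under dissector One. The intergenic percentage itself was 14.5% ± 1.15 (SD, n = 80) under dissector One and 12.8% ± 1.63 (SD, n = 165) under the other dissector.

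With both RNA percentages left out, a fit added after seeing the data, all 5 genes passed, as did 16033 of 19448 genes tested. Against that background, 5 calls are not a result about these genes. Dissector One minus the other dissector was 0.63 for ENSRNOG00000005479, 0.37 for *Aqp4*, 0.22 for *Gfap*, -0.31 for *Slc1a3* and -0.59 for ENSRNOG00000001295 on the log2 scale. With the percentages in the model, the differences were 0.059, 0.042, 0.045, 0.019 and -0.015, and 0 of 5 passed (limma-voom, adjusted p from 0.380 to 0.778), 0 at an unadjusted p under 0.05 and 0 by edgeR or DESeq2, beside 14.9% of all genes. Dissector and RNA composition cannot be told apart in the first set of values. On the 7 of 10 dissection days that both dissectors shared, with day in the model, 0 of 5 passed, beside 1432 of 19506 genes. Dissector also moved with markers of another cell type: both paired oligodendrocyte genes, *Opalin* (-0.31) and *Mag* (-0.23), were lower under dissector One with the percentages in the model. Their summed level ran from 177 to 548 CPM under dissector One (median 305) and from 171 to 589 CPM under the other dissector (median 338), and their part in the 5 genes' values was not tested. Of the further astrocyte genes 2 of 10 were higher under dissector One, as were 2 of 4 glutamate genes and 2 of 4 neuron genes.

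Family was related to all 5 genes. Families were spread unevenly over batches and PavCA training, which were in the model, and litters within a family were not modelled. With the covariates in the model, 5 of 5 passed the family test (limma-voom F test), beside 56.3% of all genes, with adjusted p of 3.40e-11 for ENSRNOG00000001295, 1.20e-07 for *Aqp4*, 8.62e-06 for ENSRNOG00000005479, 1.09e-05 for *Slc1a3* and 1.55e-04 for *Gfap*. Adding family to the covariates raised the share of variance accounted for, not corrected for the number of terms, from 91.8% to 94.3% for ENSRNOG00000001295, from 76.9% to 81.4% for *Slc1a3*, from 76.7% to 82.5% for *Aqp4*, from 59.2% to 65.6% for *Gfap* and from 54.6% to 63.2% for ENSRNOG00000005479. The medians over all genes were 50.4% and 55.5%.

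Different families were highest and lowest for different genes. With the covariates removed, family 7 was highest for *Gfap* (0.16 ± 0.12, SD, n = 21) and family 9 lowest (-0.071 ± 0.16, n = 26). Family 10 was highest for *Aqp4* (0.21 ± 0.17, n = 15) and family 11 lowest (-0.082 ± 0.18, n = 27). Family 7 was also highest for ENSRNOG00000005479 (0.36 ± 0.26, n = 21), where family 1 was lowest (-0.41 ± 0.42, n = 17), a span of 0.77 on the log2 scale. For ENSRNOG00000001295 family 10 was highest (0.13 ± 0.11, n = 15) and family 8 lowest (-0.16 ± 0.11, n = 20), and for *Slc1a3* family 4 (0.070 ± 0.11, n = 26) and family 8 (-0.11 ± 0.13, n = 20). When the families were put in order, all 11 pairs of neighbours lay closer together than the larger of their SDs for each gene, which 12 means within such a span nearly ensure. The family call was lost for all 5 genes in batch 3 alone (56 rats), for *Aqp4*, *Slc1a3* and ENSRNOG00000005479 in batch 1 alone, for *Gfap* and ENSRNOG00000005479 in females alone, for *Aqp4* and ENSRNOG00000005479 without both RNA percentages, and for *Aqp4* in batch 2 alone and with sex the only covariate. Of all genes, 204 of 19723 passed for family in batch 3 alone, 2882 of 19346 in batch 1 alone and 2071 of 19496 in females alone. Without both RNA percentages 3543 of 19448 passed, in batch 2 alone 5608 of 19439, and with sex the only covariate 11700 of 19448.

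**Figure D4:**
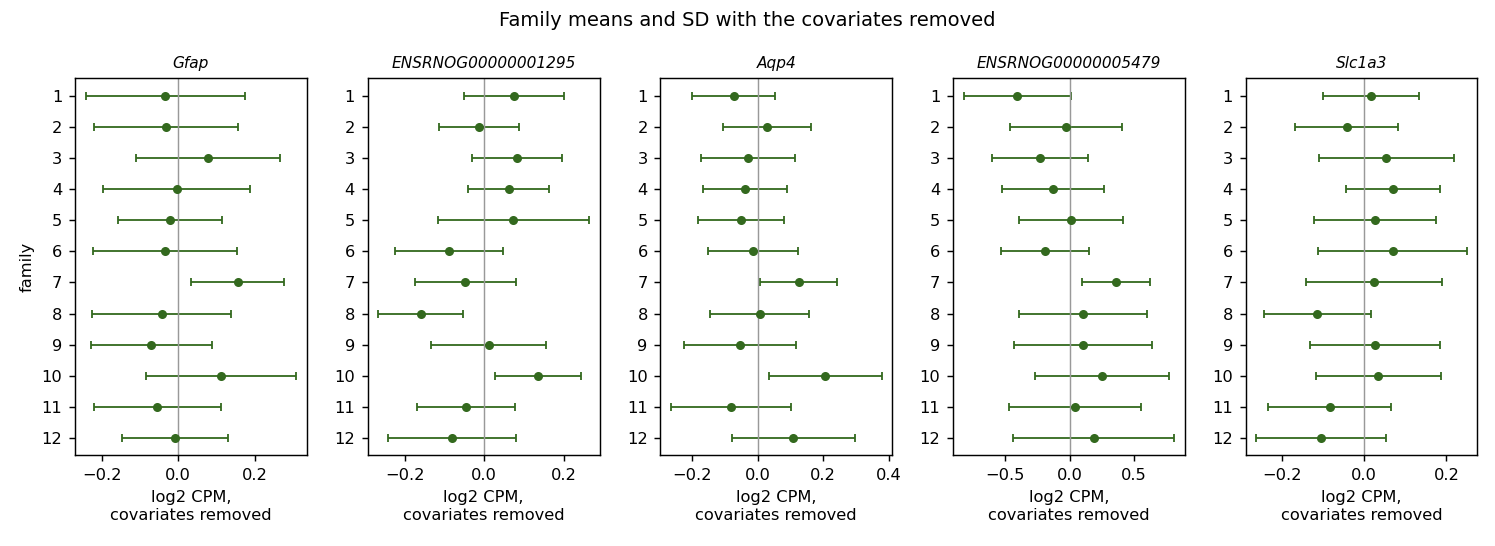
Mean and SD of log2 CPM with the covariates removed (x axis) in each of 12 families (y axis) for the 5 genes, where 0 is the mean of all rats. Families 7 and 10 lie to the right for *Gfap*, *Aqp4* and ENSRNOG00000005479, family 8 lies to the left for ENSRNOG00000001295 and *Slc1a3*, and the bars overlap between most families.

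Sequencing batch was related to 4 of 5 genes (limma-voom F test), beside 56.7% of all genes. Medians in batches 1, 2 and 3 were 832, 929 and 713 CPM for *Gfap* (adjusted p = 9.92e-04), 441, 433 and 365 CPM for *Aqp4* (adjusted p = 1.63e-08), 144, 119 and 102 CPM for ENSRNOG00000005479 (adjusted p = 4.73e-04) and 1718, 1675 and 2458 CPM for ENSRNOG00000001295 (adjusted p = 4.08e-06). *Slc1a3* had medians of 903, 900 and 1104 CPM and did not pass (adjusted p = 0.766), but passed in females alone, without the intergenic percentage and without both percentages, and ENSRNOG00000001295 did not pass in males alone. Ranges overlapped between all batches. The batches followed the dissection days. With day in the model 0 of 5 passed (limma-voom, adjusted p from 0.209 to 0.656), beside 3695 of 19448 genes. Batch and dissection day thus cannot be told apart. The mean intergenic percentage was 13.7%, 13.7% and 12.3% in the 3 batches.

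For PavCA experience and the side of the brain, none of these genes passed the threshold. *Gfap* ran from 549 to 984 CPM with a median of 797 in untrained rats and from 506 to 1329 CPM with a median of 868 in trained rats. *Aqp4* had medians of 416 and 420 CPM, *Slc1a3* 1034 and 940 CPM, ENSRNOG00000001295 2071 and 1810 CPM and ENSRNOG00000005479 125 and 119 CPM. Of the 37 untrained rats, 30 were in batch 3, 4 in batch 1 and 3 in batch 2. In these medians, training and batch therefore cannot be told apart. Batch was in the model, where the comparison within batches rests mostly on batch 3 (30 untrained and 26 trained rats). Trained minus untrained, the differences in the model ran from -0.15 for ENSRNOG00000005479 to 0.034 for *Slc1a3*. Of 5 genes 0 passed (limma-voom, adjusted p from 0.513 to 0.958), 0 at an unadjusted p under 0.05 and 0 by edgeR or DESeq2, beside 9.19% of all genes. In males alone ENSRNOG00000005479 passed (-0.67, adjusted p = 0.0610), and in a fit restricted to the 3 dates of death that held both kinds of rats (108 trained and 15 untrained) with date as a term, *Slc1a3* passed (0.15, adjusted p = 0.0887). Of all genes, 3076 of 19436 passed for experience in males alone and 869 of 19510 on those dates. Right minus left, differences ran from -0.069 for ENSRNOG00000005479 to 0.0043 for *Slc1a3*, and 0 of 5 passed (limma-voom, adjusted p from 0.904 to 0.996), 0 at an unadjusted p under 0.05 and 0 by edgeR, beside 0% of all genes.

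The study's main question was how hippocampal expression relates to behavior, and for these 5 genes no slope on any of 5 behaviors passed. For LocoScore (40 to 1461 beam breaks, median 475), log2 expression of *Aqp4* changed by -0.0093 for every 100 beam breaks (SE 0.0037, unadjusted p = 0.0123, adjusted p = 0.774). The other 4 slopes lay between -0.0037 and 0.0037. So 0 of 5 passed (limma-voom) and 1 did at an unadjusted p under 0.05, as by edgeR and DESeq2. Of all genes 0.0103% passed, and 1018 of 19448 were at an unadjusted p under 0.05. With family in the model the slope of *Aqp4* was -0.0042, and in batch 3 alone it was 0.0017.

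The maze and conditioning measures were tested in the same way. Per 1000 cm of EPM distance, slopes ran from -0.038 for ENSRNOG00000005479 to 0.0089 for *Gfap* (n = 244). Per 10 s immobile they ran from -0.018 for ENSRNOG00000005479 to 0.0021 for *Gfap*, and per 10 percentage points of open arm time from -0.017 for ENSRNOG00000005479 to 0.011 for *Aqp4*. Per unit of the PavCA Index (n = 205) they ran from -0.020 for *Aqp4* to 0.032 for *Gfap*. For each of these 4 measures 0 of 5 passed (limma-voom and edgeR) and 0 reached an unadjusted p under 0.05, with the lowest adjusted p at 0.990. Beside them stand 0% of all genes for distance, 0% for immobility, 0% for open arms and 0.00514% for the PavCA Index, with 728, 830, 759 and 720 of 19448 genes at an unadjusted p under 0.05.

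**Figure D5:**
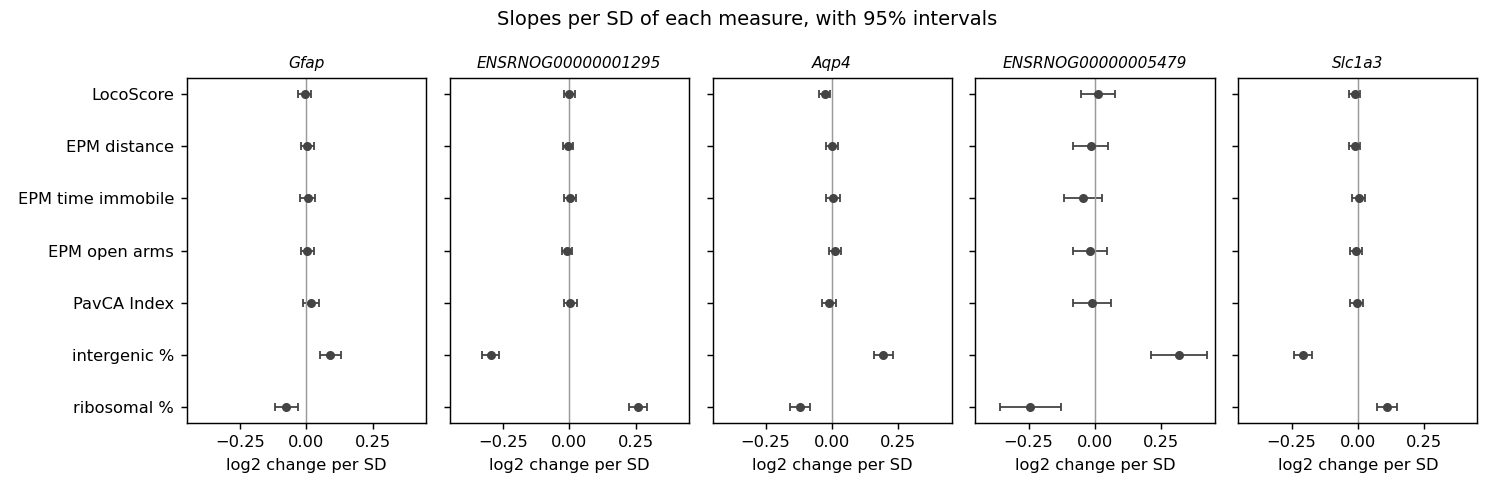
Change in log2 expression per SD of each measure (x axis), with 95% intervals, for 5 behaviors and the 2 RNA percentages (y axis) and the 5 genes. Intervals of the behaviors lie near 0, and those of the intergenic percentage run from 0.21 to 0.42 per SD for ENSRNOG00000005479 and from -0.33 to -0.26 for ENSRNOG00000001295.

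Put on the scale of 1 SD of each behavior, the unadjusted 95% intervals of the slopes of *Gfap*, *Aqp4*, *Slc1a3* and ENSRNOG00000001295 stayed between -0.050 and 0.047 on the log2 scale. Those of ENSRNOG00000005479, the gene with the widest spread, reached from -0.12 to 0.074. For comparison, 1 SD of the intergenic percentage went with 0.091 for *Gfap* and 0.32 for ENSRNOG00000005479. A slope that did not pass is therefore bounded, and was not shown to be 0.

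Slopes were also compared between the sexes. Of 25 interactions of sex with behavior for the 5 genes, 0 passed (limma-voom, adjusted p from 0.259 to 1.00) beside 0.329% of all genes for LocoScore, 0.00514% for immobility and 0% for distance, open arms and the PavCA Index. At an unadjusted p under 0.05 there were 3 of 25, where of all 19448 genes there were 3589 for LocoScore, 1134 for distance, 2946 for immobility, 619 for open arms and 1660 for the PavCA Index. The 3 were ENSRNOG00000001295 with the PavCA Index (-0.14, SE 0.042, p = 0.00136, adjusted p = 0.581), *Slc1a3* with LocoScore (-0.014, p = 0.0438, adjusted p = 0.259) and *Slc1a3* with EPM distance (-0.098, p = 0.0442, adjusted p = 0.809). None of the further astrocyte or glutamate genes passed for any of the 5 behaviors.

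Across rats, other genes followed these 5 more or less closely. With the covariates removed, the gene most like *Gfap* outside the 5 was *Lgi4* (r = 0.515 over 245 rats), below the r of 0.594 with *Aqp4*. For *Aqp4* it was *Gprc5b* (0.715), an orphan receptor gene, for ENSRNOG00000001295 *Asrgl1* (0.756), an asparaginase gene, and for *Slc1a3* ENSRNOG00000011381 (0.699). ENSRNOG00000005479 had by far the closest partner, ENSRNOG00000033496, with r = 0.943. For the mean of the 5 standardized genes, the highest were ENSRNOG00000052469 (0.680) and ENSRNOG00000037871 (0.657), and the lowest *Agpat4* (-0.513), an acyltransferase gene, and ENSRNOG00000060211 (-0.479). Among genes with a paired symbol the highest were *Nadk2* (0.591), *Gpam* (0.550), *Axl* (0.526), *Rorb* (0.493) and *Homer2* (0.479), of which *Axl* and *Rorb* are on the astrocyte list. All values share the same libraries and the same removed covariates.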

How the data were processed

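PolyA RNA-Seq libraries of rat hippocampus were analysed. The authors aligned reads with STAR 2.7.3a to the Rnor6 genome and counted them per gene (Ensembl release 103) with Subread 2.0.0, and deposited raw counts. From these, genes reaching 1 read in no fewer than 25% of the rats were scaled by TMM and tested with limma-voom (limma 3.58.1, edgeR 4.0.16, R 4.3.3) at an FDR of 0.10. The model, after the study's methods, held each behavior with sex, ribosomal and intergenic percentage, dissector, PavCA experience and batch. Sex, dissector, experience and RNA slopes come from the LocoScore model, and family and side were added to it. Interaction models held a behavior, its product with sex and the covariates. The intergenic label is damaged, so it was recomputed as the remainder after the mRNA, intronic and ribosomal percentages of the labels. Batches were read from breaks in the numbers of the library titles. PavCA Index models (205 rats) had no experience term, and 1 EPM distance above 5000 cm was left out. DESeq2 1.42.0 and Python 3.11.15 with scipy 1.17.1 were used beside these. Permutation tests took 100000 resamples and were two-sided, with Benjamini-Hochberg adjustment within each set of relations. They moved rats freely between intercross families. Log2 CPM used a pseudocount of 0.5.

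The 5 genes and the marker lists were chosen with earlier results of these data known. Named genes were the 5, their closest correlates and, per list, up to 4 genes with the highest mean count. Symbols came from the annotation of the study's supplementary results, which paired 1985 identifiers, all tested. These results include a list of genes that differed by sex in these data. Paired genes may therefore not be a neutral sample for sex. The tests were run on simulated counts with known changes. Those counts held no effects of RNA composition, batch or dissector, so that check does not cover them. Each library is 1 rat. The 5 libraries of failed quality control were left out. Promoters came from RefSeq (GRCr8), which is not the build of the counts. Alternatives were other scalings, filters, tests, covariates and subsets. Those added after seeing the data were fits without both RNA percentages, without the ribosomal percentage, and within each dissector.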

Additional observations from a re-analysis of the deposited data

How the results depend on the processing

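Most alternatives changed 1 choice. The fit with sex the only covariate left out all other covariates together, and that without both RNA percentages left out 2. Subsets of 1 sex, batch or dissector also lost that term. The fits on shared dates of death and on shared dissection days also added the date or day as a term. Counts of the 5 genes that passed moved by more than 1.5 times as follows. For sex, with 2 genes passing, the count was 1 with sex the only covariate, 1 without the intergenic and ribosomal percentages (added after seeing the data), 0 in batch 3 alone and 0 with dissector One alone (added). For dissector, with 0 passing, it was 4 without the intergenic percentage and 5 without both percentages. Of all 19448 genes, 10015 and 16033 passed in these fits. The dissector count was 2 in batch 1 alone (all genes: 3859 of 19346) and 1 in batch 3 alone (all genes: 620 of 19723). For PavCA experience, with 0 passing, it was 1 in males alone and 1 on the shared dates of death with date as a term. For the intergenic percentage, with 5 passing, it was 2 with dissector One alone, and for the ribosomal percentage, with 5 passing, 1 in batch 3 alone. For batch, with 4 passing, it was 0 with dissection day added. For family, with 5 passing, it was 3 in females alone, 2 in batch 1 alone, 0 in batch 3 alone and 3 without both percentages. Sign changes of a value that passed in either setting were 3: *Slc1a3* for dissector at -0.31 without both percentages, *Gfap* for the intergenic percentage at -0.0098 with dissector One alone, and ENSRNOG00000005479 for the ribosomal percentage at 0.10 in batch 3 alone. The cause was not tested, beyond the smaller number of rats in the subsets.

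Over 1040 values of single genes and pairs under an alternative, and apart from these 3, 36 lost their call, 19 gained one and 147 changed sign while passing in neither setting. Behavior, side and interaction counts stayed at 0 under every alternative run, and the correlations on log2 CPM at 10 of 10. With the covariates removed, 6 of 10 correlations passed, and 6 or 7 did under the 3 alternatives, the further one being ENSRNOG00000005479 with *Slc1a3* with all 250 libraries. Of the 35 relations with RNA measures, 32 to 34 passed.

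No paired analysis was possible because the labels give no replicate numbers that join rats of different groups. Family, which the labels give, was added as a term instead, and with it the sex difference was -0.15 for *Gfap* and -0.12 for *Aqp4*, with 2 of 5 genes passing. Depth was at least 17.9 M counts per library, and the lowest count of any of the 5 genes in any library was 788, so counting error is small beside the spread among rats. Batch 3 held 56 rats, and subsets of this size widen the error of every slope.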
